A study of Mus musculus with 5 samples.

Results

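RNA was compared in inguinal white adipose tissue (iWAT), the fat under the skin of the groin, between mice labelled ATRβKO, in which adipocytes lack the thyroid hormone receptor TRβ (encoded by Thrb), and floxed control mice, both given T3 (triiodothyronine, the active thyroid hormone). All 14988 genes with at least 1 FPKM in the higher of the 2 libraries were taken, of 53700 genes listed. FPKM scales fragments to transcript length and to the size of the library, so levels of different genes are per length. Mice of the 3 groups used here ate normal food and had 7 daily injections. The mice were killed 24 hours after the last. Every group is 1 library from the pooled iWAT of 3 mice, and the groups are floxed mice given T3, ATRβKO mice given T3 and floxed mice given PBS (vehicle). The groups share the housing and the number of injections, and differ in genotype or in the agent injected. No library of ATRβKO mice given vehicle is among the 5 samples of the series. The genotype difference is therefore read here only under T3, and a difference that does not need T3 cannot be told apart. The Cre driver, strain, age and T3 dose are not given in the sources used here. A floxed allele carries recombination sites around the target sequence and is intact until Cre acts on it, so floxed mice stand for the control genotype. The series title asks about the receptor of adipocytes and the use of glucose.

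TRβ and TRα, the products of Thrb and Thra, are nuclear receptors that sit on DNA, mostly together with a retinoid X receptor. Without hormone they hold corepressors such as NCOR1 and HDAC3, and with T3 they take up coactivators instead. In fat, T3 is known for inducing the uncoupling protein Ucp1, which lets mitochondria burn fuel as heat, and for inducing enzymes that turn sugar into fatty acids, with Thrsp, Me1 and Fasn as textbook targets.

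With 1 library per group there was no spread between animals, no test and no p-value, so every difference is described by its size. A gene is called higher or lower where the log2 ratio of the library labelled ATRβKO (T3) over floxed T3, with 1 FPKM added to both, was at least 1 in size, that is 2-fold. Levels follow in 1 order throughout: the library labelled ATRβKO (T3), then floxed T3, then floxed vehicle. The vehicle level is context only. The difference between floxed T3 and vehicle and the difference between floxed T3 and the library labelled ATRβKO (T3) share the floxed T3 library, so a low floxed T3 value alone would move both, and nearness to vehicle is not counted as evidence.

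Receptor levels came first, as a check of the label. Thrb stood at 4.26, 4.43 and 4.44 FPKM, a log2 ratio of -0.05. All 3 libraries had nearly the same level, so the gene-level value did not separate the library labelled ATRβKO (T3) from the floxed ones. A gene-level value of whole tissue does not show whether the floxed exons are present in adipocytes, so it neither checks the label nor goes against it. Thra, which encodes TRα, stood at 41.6, 32.7 and 50.4 FPKM, a log2 ratio of 0.34. Of 21 genes of receptors, partners, deiodinases and hormone transporters, 16 reached 1 FPKM and none passed 2-fold. The retinoid X receptor Rxra stood at 40.9, 32.8 and 40.8 FPKM, and the corepressor Ncor1 at 47.5, 45.2 and 54.9 FPKM. Slc7a8, an amino acid carrier that also takes thyroid hormones, had the largest ratio of the list, 0.71, with 4.84, 2.57 and 4.91 FPKM. The deiodinases Dio1, Dio2 and Dio3, which activate or clear the hormone, were all below 1 FPKM in both T3 libraries.

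By the 2-fold rule 606 genes (4.04% of those compared) were higher in the library labelled ATRβKO (T3) and 302 (2.01%) were lower, while 14080 passed in neither direction. The median log2 ratio over all genes was 0.18, and 70.3% of genes had a ratio above 0. The middle of the distribution was narrow: 1 gene in 4 lay below -0.05 and 1 in 4 above 0.40. A few abundant genes took different shares of the libraries. The 50 most abundant genes took 44.5% of all FPKM in floxed T3, 35.9% in the library labelled ATRβKO (T3) and 36.7% in vehicle, and transcripts of the mitochondrial genome alone took 19.2%, 12.4% and 14.2%. FPKM divides by the library total, so list medians below are to be read against 0.18. Counts of list members called are to be read against the 4.04% higher and 2.01% lower of all genes. Rescaling to a median ratio of 0 gave 400 genes higher and 444 lower in place of 606 and 302, and rescaling by trimmed means gave 408 and 421. At 4-fold, 94 genes were higher and 54 lower. Near the 2-fold line, 138 genes lay just inside it on the higher side (log2 1.0 to 1.1) and 185 just outside, and 46 and 74 on the lower side. Of the genes called, 148 of the higher ones were listed at 0 in floxed T3 and 92 of the lower ones at 0 in the library labelled ATRβKO (T3). The share lower was 6.79% among the 221 genes at 500 FPKM or more and 1.18% among the 5673 genes from 5 to 20 FPKM. All 3 libraries carried the Y-linked Ddx3y at 30.0, 27.7 and 29.4 FPKM.

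**Figure D1:**
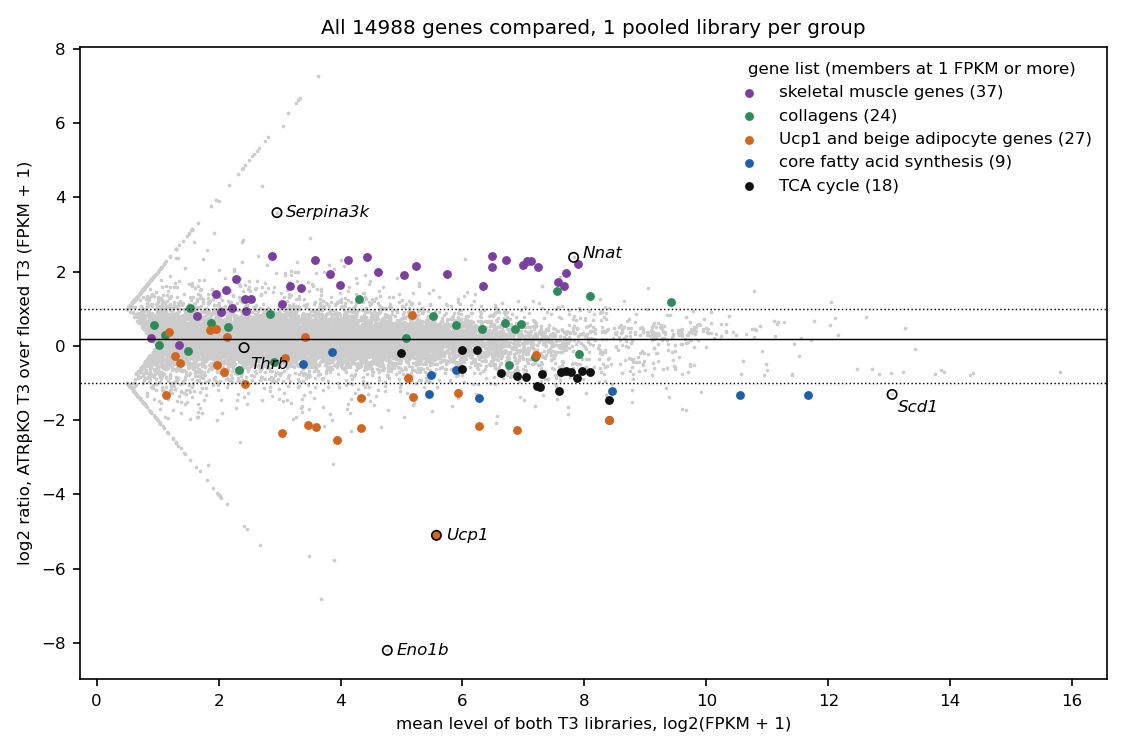
Each grey point is 1 of 14988 genes, with the mean level of both T3 libraries on the x axis (log2 of FPKM + 1) and the log2 ratio of the library labelled ATRβKO (T3) over floxed T3 on the y axis. Coloured points are members of 5 lists, dotted lines mark 2-fold and the solid line the median of all genes, 0.18. Skeletal muscle genes lie above the upper dotted line apart from Cox8b and a few low members, and all 18 TCA cycle genes lie below 0. The 2 diagonal edges are genes at or near 0 in 1 of the 2 libraries.

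Genes of heat-producing (beige) adipocytes held more genes called lower than any other list examined. Of 31 listed, 27 reached 1 FPKM, of which 14 were lower and none higher. Their median log2 ratio was -1.03 against 0.18 for all genes. The list did not move as 1 group, since 21 ratios were below 0 and 6 above it. Those above were Epsti1 (0.83), Tbx1 (0.47), Lhx8 (0.44), Tmem26 (0.39), Zfp516 (0.24) and Ebf2 (0.24). Ucp1, the uncoupling protein of the inner mitochondrial membrane, stood at 7.13, 278 and 24.3 FPKM. Its level was 39.0-fold lower than in floxed T3, the second smallest ratio of all named genes (log2 -5.10), and also below vehicle. Cpt1b, the muscle-type carnitine palmitoyltransferase that lets long-chain fatty acids into mitochondria, stood at 5.42, 36.2 and 14.2 FPKM. Cidea, a lipid droplet protein of brown and beige fat, stood at 35.6, 162 and 106 FPKM. For both, the library labelled ATRβKO (T3) had less than either floxed library. Cox7a1 and Cox8b, tissue-specific subunits of cytochrome c oxidase, stood at 53.6, 259 and 55.2 FPKM and at 169, 677 and 254 FPKM. Fabp3, a fatty acid binding protein, stood at 4.70, 24.9 and 8.96 FPKM. Otop1, a proton channel, stood at 4.31, 22.1 and 6.08 FPKM, and the acyl-CoA thioesterase Acot11 at 2.68, 17.6 and 3.64 FPKM. These 7 partners of Ucp1 had log2 ratios from -2.53 to -2.0, and floxed T3 was the highest of the 3 libraries for each. In bulk tissue, fewer cells of a type and less RNA per cell cannot be told apart.

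Regulators of the beige programme differed less. Ppargc1a, a coactivator of mitochondrial genes, stood at 1.20, 2.02 and 2.39 FPKM, and Prdm16, a factor of brown fat identity, at 6.60, 8.45 and 9.61 FPKM. Ebf2, another such factor, had a ratio above 0, with 10.6, 8.80 and 11.0 FPKM. Of these 3 none passed 2-fold. Among receptors that drive heat production, Adra1a, an α1-adrenergic receptor, was lower at 3.95, 12.9 and 6.19 FPKM. Adrb3, the main β-adrenergic receptor of rodent adipocytes, stood at 135, 160 and 167 FPKM with a log2 ratio of -0.24. Kcnk3, a potassium channel, was lower at 11.3, 31.8 and 15.7 FPKM, and so was Clstn3 at 21.5, 57.5 and 24.9 FPKM.

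Several of these genes, Cpt1b, Cox7a1, Cox8b and Fabp3 among them, are also expressed in striated muscle, and skeletal muscle transcripts differed between the libraries in the opposite direction. Of 41 skeletal muscle genes, 37 reached 1 FPKM, 31 of those were higher and 1, Cox8b, was lower, with a median of 1.80. Their summed level was 4313 FPKM in the library labelled ATRβKO (T3), 1674 in floxed T3 and 4303 in vehicle. Pvalb, a calcium-binding protein of fast fibres, stood at 205, 37.8 and 193 FPKM, and Ckm, muscle creatine kinase, at 271, 58.8 and 319 FPKM. Myh4, the fast myosin heavy chain, stood at 233, 45.8 and 201 FPKM, and Tnnt3, fast troponin T, at 510, 109 and 517 FPKM. Floxed T3 was the low library for these, and the other 2 were close to each other. That nearness did not hold for the whole list. Mb stood at 25.6, 4.34 and 9.71 FPKM and Ckmt2 at 16.1, 2.17 and 7.62 FPKM, with vehicle between the T3 libraries. Sln, which regulates the calcium pump of muscle, was listed at 0 in floxed T3 and at 0.10 FPKM in the library labelled ATRβKO (T3), and no other gene of the list was at 0. Slow-fibre genes were scarce, with Myh7 at 0.05, 0.19 and 1.20 FPKM. The 31 muscle genes are 31 of the 606 genes called higher and 13 of 26 beige genes were lower with Cox8b left out. The part of muscle transcripts in the other results was not tested.

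**Figure D2:**
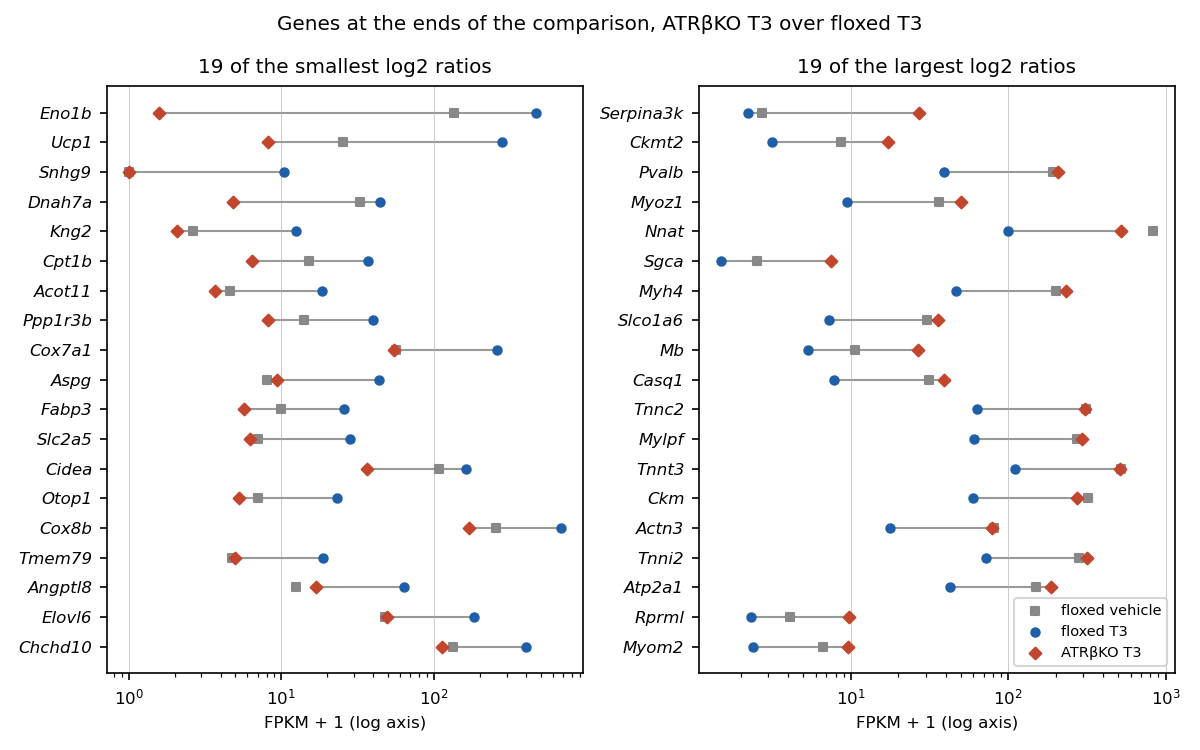
Of the 20 genes with the smallest and the 20 with the largest log2 ratio among genes at 5 FPKM or more, 19 each are shown, with FPKM + 1 on a log axis and 1 symbol per library. The grey line joins both T3 libraries. On the left floxed T3 is the highest library for all 19 genes shown. On the right it is the lowest for all 19, of which most encode proteins of skeletal muscle. The order of both T3 libraries follows from the choice of genes by their ratio. The place of vehicle is set against the same floxed T3 value, so neither count is evidence.

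Genes known as thyroid hormone targets from work in liver, brain or fat divided into those lower in the library labelled ATRβKO (T3) and those near equal. Of 19 listed, 18 reached 1 FPKM, 8 were lower and 1 was higher, with a median of -0.08. Besides Ucp1, the lower ones included Gpd2, the mitochondrial glycerol phosphate dehydrogenase, at 23.8, 82.4 and 25.9 FPKM and Thrsp, a small regulator of lipogenesis, at 954, 2367 and 963 FPKM. Me1, malic enzyme, stood at 445, 1468 and 349 FPKM. The others were Kcnk3, Fasn, Acaca and Idh3a. Hr and Klf9, targets known in brain and skin, had small ratios of -0.08 and 0.20, with Hr at 8.49, 9.05 and 8.37 FPKM and Klf9 at 36.5, 31.6 and 46.0 FPKM. Floxed T3 did not exceed vehicle by 2-fold for either of them. The higher gene was Slc16a3, a lactate exporter, at 5.61, 2.13 and 3.34 FPKM. Pck1, the cytosolic phosphoenolpyruvate carboxykinase, lay just under the line at 732, 369 and 628 FPKM.

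Thyroid hormone receptors bind repeats of a DNA word close to AGGTCA, best known as a direct repeat with 4 bases between, and promoters were searched for these letters. Promoter windows (250 bases before to 50 after the start site) came from RefSeq on the build GRCm38.p6, which is not the build of the deposited values, and were matched by gene. The word AGGTCA, on either strand, was found in 26.0% of 154 windows of genes called lower and in 16.2% of 340 windows of genes called higher. Over all compared genes it was found in 12.7% of 13773 windows, and over all 32851 windows in 16.3%, close to the share of the higher genes. A gene can have several windows. Counted by gene, the shares were 29.3% for lower, 17.5% for higher and 15.1% for all compared genes with a window. Only 123 of the 302 lower genes and 269 of the 606 higher genes had a window. The direct repeat of AGGTCA with 4 bases between, on either strand, was in no window of a compared gene and in 5 of all 32851 windows. Genes at the ends of the comparison were taken as the 20 smallest ratios, the 20 largest ratios and the 10 largest losses in FPKM. Most of those losses were in transcripts of the mitochondrial genome. The largest gains were not included, so the set holds more genes from the lower side. Among these 50 genes 29 had a window and 6 held the word. Those 6 are printed, since 4 of them are among the lowest ratios and 2 among the highest. The word is in capitals, TGACCT where it lies on the other strand, and each line is 60 bases of the gene's own strand ending at or before the start site.
Ucp1: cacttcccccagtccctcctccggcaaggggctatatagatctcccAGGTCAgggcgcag
Elovl6: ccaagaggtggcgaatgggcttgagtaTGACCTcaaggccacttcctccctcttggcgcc
Chchd10: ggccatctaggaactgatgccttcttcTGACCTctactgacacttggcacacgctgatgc
Kng2: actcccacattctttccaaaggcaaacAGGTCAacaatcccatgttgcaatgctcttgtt
Mb: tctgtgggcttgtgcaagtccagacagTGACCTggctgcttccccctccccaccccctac
Atp2a1: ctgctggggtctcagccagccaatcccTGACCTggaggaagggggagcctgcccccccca
The windows are chr8:83290288-83290347 (plus strand) for Ucp1, chr3:129532166-129532225 (plus) for Elovl6, chr10:75932991-75933050 (plus) for Chchd10, chr16:23029125-23029184 (minus) for Kng2, chr15:77022832-77022891 (minus) for Mb and chr7:126463144-126463203 (minus) for Atp2a1. In Ucp1 the word begins at position -14 from the start site and in Elovl6 at -193. A match describes letters in a window and is not a receptor site. The known thyroid response elements of Ucp1 lie in a distal enhancer outside this window, and a window with no match says nothing about the receptor. The word was found in windows of genes at both ends of the comparison.

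Enzymes of fatty acid synthesis were lower in the library labelled ATRβKO (T3) at the main steps of the route from citrate to long-chain fatty acids. Of 9 genes that supply citrate and acetyl-CoA, 4 were lower, none was higher and the median was -0.85. Acly, which splits citrate into acetyl-CoA, stood at 429, 1389 and 350 FPKM, and Acss2, which makes acetyl-CoA from acetate, at 119, 371 and 92.1 FPKM. Of 10 genes of core fatty acid synthesis 9 reached 1 FPKM, 5 were lower and none was higher, with a median of -1.22. Fasn, fatty acid synthase, stood at 2068, 5127 and 1901 FPKM, a log2 ratio of -1.31. Acaca and Acacb, the acetyl-CoA carboxylases, stood at 230, 537 and 189 FPKM and at 46.2, 125 and 48.3 FPKM. For all of these floxed T3 was more than 2-fold above the other libraries, which lay near each other.

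Chain elongation and desaturation followed in part. Of 20 such genes 14 reached 1 FPKM, and 3 were lower: Elovl6, which extends palmitate, and the stearoyl-CoA desaturases Scd1 and Scd2. Elovl6 stood at 48.3, 183 and 46.5 FPKM, a log2 ratio of -1.90. Scd1, which introduces the double bond of oleate, stood at 5382, 13306 and 4216 FPKM and had the largest loss in FPKM of the nuclear genes that the naming rule allowed. Scd2 stood at 82.5, 255 and 79.3 FPKM. Genes for polyunsaturated chains differed less. Fads1, at 25.8, 25.4 and 24.3 FPKM, and Elovl5, at 42.3, 46.4 and 38.7 FPKM, were close to equal. Fads2 stood at 7.85, 13.2 and 7.29 FPKM, a log2 ratio of -0.68, and did not reach 2-fold. The list median was -0.25.

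Cofactor supply had the same pattern at a few enzymes. Of 19 measured genes of NADPH supply and the pentose phosphate pathway, 3 were lower and none higher, with a median of -0.12. Besides Me1 these were Pgd, phosphogluconate dehydrogenase, at 166, 402 and 158 FPKM and Tkt, transketolase, at 623, 1472 and 563 FPKM. G6pdx, which opens the pathway, stood at 81.2, 146 and 64.8 FPKM and did not reach 2-fold. The transcription factors of lipogenesis were nearer to equal, and none of 13 passed 2-fold. Mlxipl, which encodes the sugar-sensing factor ChREBP, had the smallest ratio, -0.86, with 60.7, 111 and 76.2 FPKM. Srebf1, which encodes SREBP1, stood at 117, 148 and 126 FPKM, and Nr1h3, which encodes the oxysterol receptor LXRα, at 48.0, 47.1 and 44.4 FPKM. Their median of 0.04 turned below 0 when the libraries were rescaled by their median, by trimmed means or without the top 50 genes.

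Assembly and storage of triglyceride differed less. Of 23 measured genes 1 was lower, Agpat2, which adds the second fatty acid to glycerol phosphate, at 292, 666 and 281 FPKM. Dgat2, which adds the last one, stood at 581, 889 and 540 FPKM, and Gpam, which adds the first, at 41.4, 63.8 and 35.8 FPKM. Lpl, the lipase that takes up fatty acids from lipoproteins, had a ratio above 0, with 1474, 981 and 1273 FPKM. Of 20 measured genes of lipid droplets and lipolysis, 3 were lower (Cidea, Plin5 and Plin2) and 1 was higher, with a median of -0.11. Plin2, a droplet coat protein, stood at 245, 502 and 195 FPKM. Fitm1, which helps droplets form, was the higher one at 4.46, 0.93 and 2.54 FPKM. It is not in the muscle list used here, and the part of muscle transcripts in its ratio was not tested. Plin4 stood at 427, 221 and 447 FPKM and did not reach 2-fold. The lipases Pnpla2 and Lipe stood at 671, 829 and 769 FPKM and at 469, 538 and 573 FPKM.

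**Figure D3:**
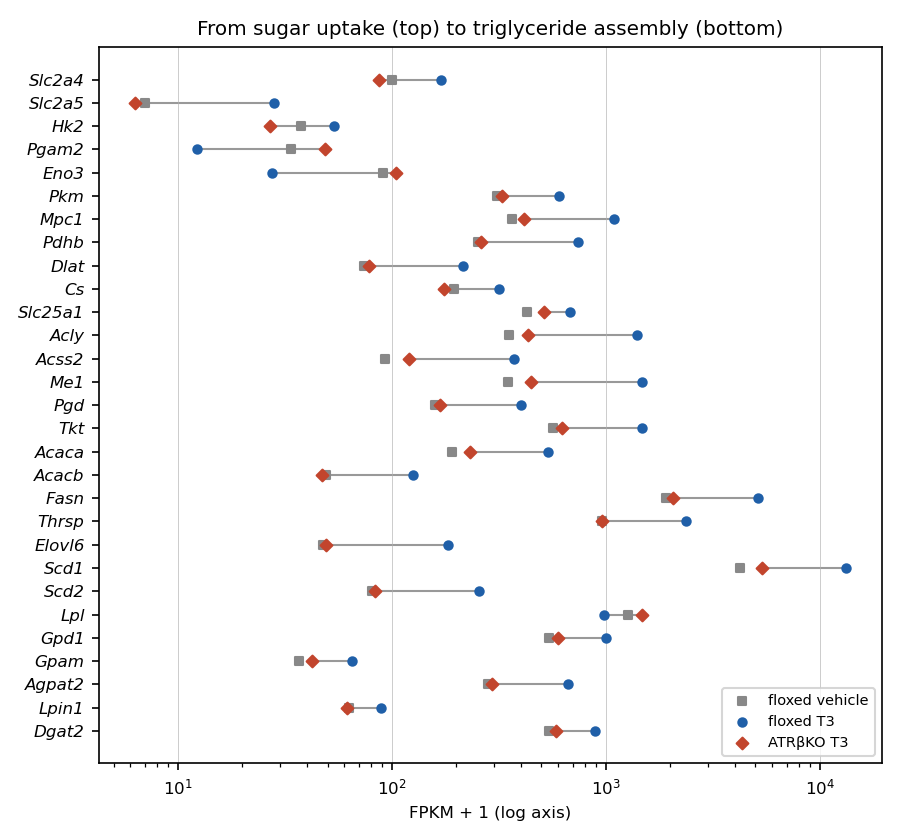
Levels of 29 genes in the order of the route from sugar uptake to triglyceride, with FPKM + 1 on a log axis and 1 symbol per library; the genes were chosen after their values were seen. Floxed T3 is the highest library for 26 of them and the lowest for Pgam2, Eno3 and Lpl, a count that follows from the choice of genes. In floxed T3 they span 11.3 FPKM for Pgam2 to 13306 FPKM for Scd1.

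Genes of sugar uptake were lower in part. Slc2a5, the fructose transporter, stood at 5.28, 27.1 and 6.01 FPKM and was called lower. Slc2a4, the insulin-responsive glucose transporter GLUT4, stood at 86.3, 169 and 99.6 FPKM, a log2 ratio of -0.96, and Hk2, the hexokinase beside it, at 25.8, 52.4 and 36.5 FPKM. These lay just outside the 2-fold line. Irs2, an insulin receptor substrate, was higher at 14.5, 5.45 and 9.42 FPKM, while the receptor Insr stood near equal with a log2 ratio of 0.09. The median of 25 measured genes of glucose uptake and insulin signalling was 0.15, and it turned below 0 under rescaling by the median or by trimmed means. None of 13 measured genes of gluconeogenesis, fructose and hexosamine metabolism passed 2-fold, and their median was 0.25.

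Glycolysis split by isoform. Of 22 measured genes, 1 was lower and 3 were higher, with a median of -0.44. Pkm, pyruvate kinase, stood at 325, 604 and 310 FPKM, and Gapdh at 1165, 1970 and 1041 FPKM, and neither reached 2-fold. Ldhb, a lactate dehydrogenase subunit, was lower at 39.0, 90.2 and 55.7 FPKM. Of the 3 higher genes, Pgam2 and Eno3 are the muscle isoforms of phosphoglycerate mutase and enolase, with Eno3 at 103, 26.4 and 89.7 FPKM. Without the 2 genes shared with the muscle list the median was -0.57, with 1 gene higher (Slc16a3) and 1 lower. The part of muscle transcripts in the ratio of Slc16a3 was not tested.

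Glycogen genes divided the same way. Ppp1r3b, which targets a phosphatase to glycogen, stood at 7.13, 39.1 and 13.1 FPKM, and Gys2, the liver-type glycogen synthase, at 8.54, 30.2 and 7.30 FPKM. Pygl, the liver-type phosphorylase, stood at 113, 305 and 109 FPKM, and the branching enzyme Gbe1 at 64.1, 131 and 60.2 FPKM. These 4 were lower. The muscle phosphorylase Pygm was higher at 62.7, 16.1 and 59.2 FPKM, and so was Phkg1, a muscle subunit of phosphorylase kinase, at 14.7, 6.35 and 10.3 FPKM. The median of 23 measured genes was 0.07 and turned below 0 under all 3 rescalings.

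Behind pyruvate, 4 of 15 genes of pyruvate entry and the pyruvate dehydrogenase complex were lower and none was higher, with a median of -0.72. Mpc1, a subunit of the mitochondrial pyruvate carrier, stood at 415, 1084 and 364 FPKM. Pdhb and Dlat, subunits of the pyruvate dehydrogenase complex, stood at 259, 738 and 252 FPKM and at 77.3, 213 and 73.1 FPKM. Pdk4, the kinase that switches the complex off, was lower too, at 38.1, 93.9 and 33.2 FPKM. Subunits of the complex and a kinase that opposes it were thus lower together.

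All 18 TCA cycle genes had a ratio below 0, and 4 were lower by the 2-fold rule, with a median of -0.72. Idh3a, of the NAD-linked isocitrate dehydrogenase, stood at 125, 291 and 134 FPKM, and Sucla2, of succinyl-CoA synthetase, at 105, 226 and 128 FPKM. Cs, citrate synthase, stood at 175, 316 and 193 FPKM and lay within 2-fold. Fatty acid oxidation was similar, with 5 of 24 genes lower, none higher and a median of -0.49. Besides Cpt1b these were Acaa2, Hadhb, Acadvl and Hadha, which carry out the rounds of β-oxidation. Hadhb stood at 206, 517 and 242 FPKM. Cpt1a, the liver-type partner of Cpt1b, had a ratio of 0.38, with 23.1, 17.5 and 19.5 FPKM. The other 19 genes of the list did not pass 2-fold.

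Most genes of the respiratory chain had a ratio below 0 and few passed 2-fold. None of the 23 complex I genes passed 2-fold, yet 22 had a ratio below 0 and all 23 lay below the median of all genes. Their list median was -0.52. The 14 genes of complexes II and III and cytochrome c all had a ratio below 0, with a median of -0.75. Uqcrc1, a core subunit of complex III, stood at 180, 326 and 191 FPKM, and Ndufs1, a core subunit of complex I, at 68.1, 122 and 76.2 FPKM. In complex IV the median was -0.54, the tissue-specific Cox7a1 and Cox8b were lower, and the muscle subunit Cox6a2 was higher at 16.5, 4.97 and 9.18 FPKM. ATP synthase genes had a median of -0.35 and none of 16 passed 2-fold, with ratios from -0.79 for Atp5b, at 1509, 2602 and 1712 FPKM, to 0.79 for Atp5g1, at 79.2, 45.5 and 61.1 FPKM.

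Transcripts of the mitochondrial genome had a median of -0.62, and 14 of 15 had a ratio below 0. Most abundant was mt-Atp8, at 44795, 73315 and 49766 FPKM, and mt-Co1 stood at 15706, 26982 and 19327 FPKM. Short, overlapping mitochondrial genes share reads, so single values there are uncertain. Nuclear genes for mitochondrial ribosomal proteins lay close together, with a median of -0.25 over 28 genes and none past 2-fold. Coq8a, a kinase-like protein needed for coenzyme Q synthesis, was lower at 20.7, 62.1 and 31.2 FPKM, the only one of 13 in its list. Chchd10, a protein of the mitochondrial intermembrane space, stood at 111, 398 and 132 FPKM, among the 20 smallest ratios. None of 19 measured genes of mitochondrial biogenesis and dynamics passed 2-fold. Ratios ran from -0.89 for Esrrg, an orphan receptor, to 0.57 for Mfn1, which fuses mitochondria, and Tfam, which packs mitochondrial DNA, stood at 27.1, 26.3 and 28.6 FPKM.

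Cholesterol synthesis was lower at 4 of 23 measured genes and higher at none, with a median of -0.53. Fdps, farnesyl diphosphate synthase, stood at 36.3, 98.2 and 30.7 FPKM, and Lss, lanosterol synthase, at 6.27, 18.2 and 7.00 FPKM. Pmvk, phosphomevalonate kinase, stood at 46.3, 116 and 46.5 FPKM, and Nsdhl, a sterol dehydrogenase, at 19.8, 46.9 and 18.4 FPKM. For these 4 genes floxed T3 was the highest of the 3 libraries.

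**Figure D4:**
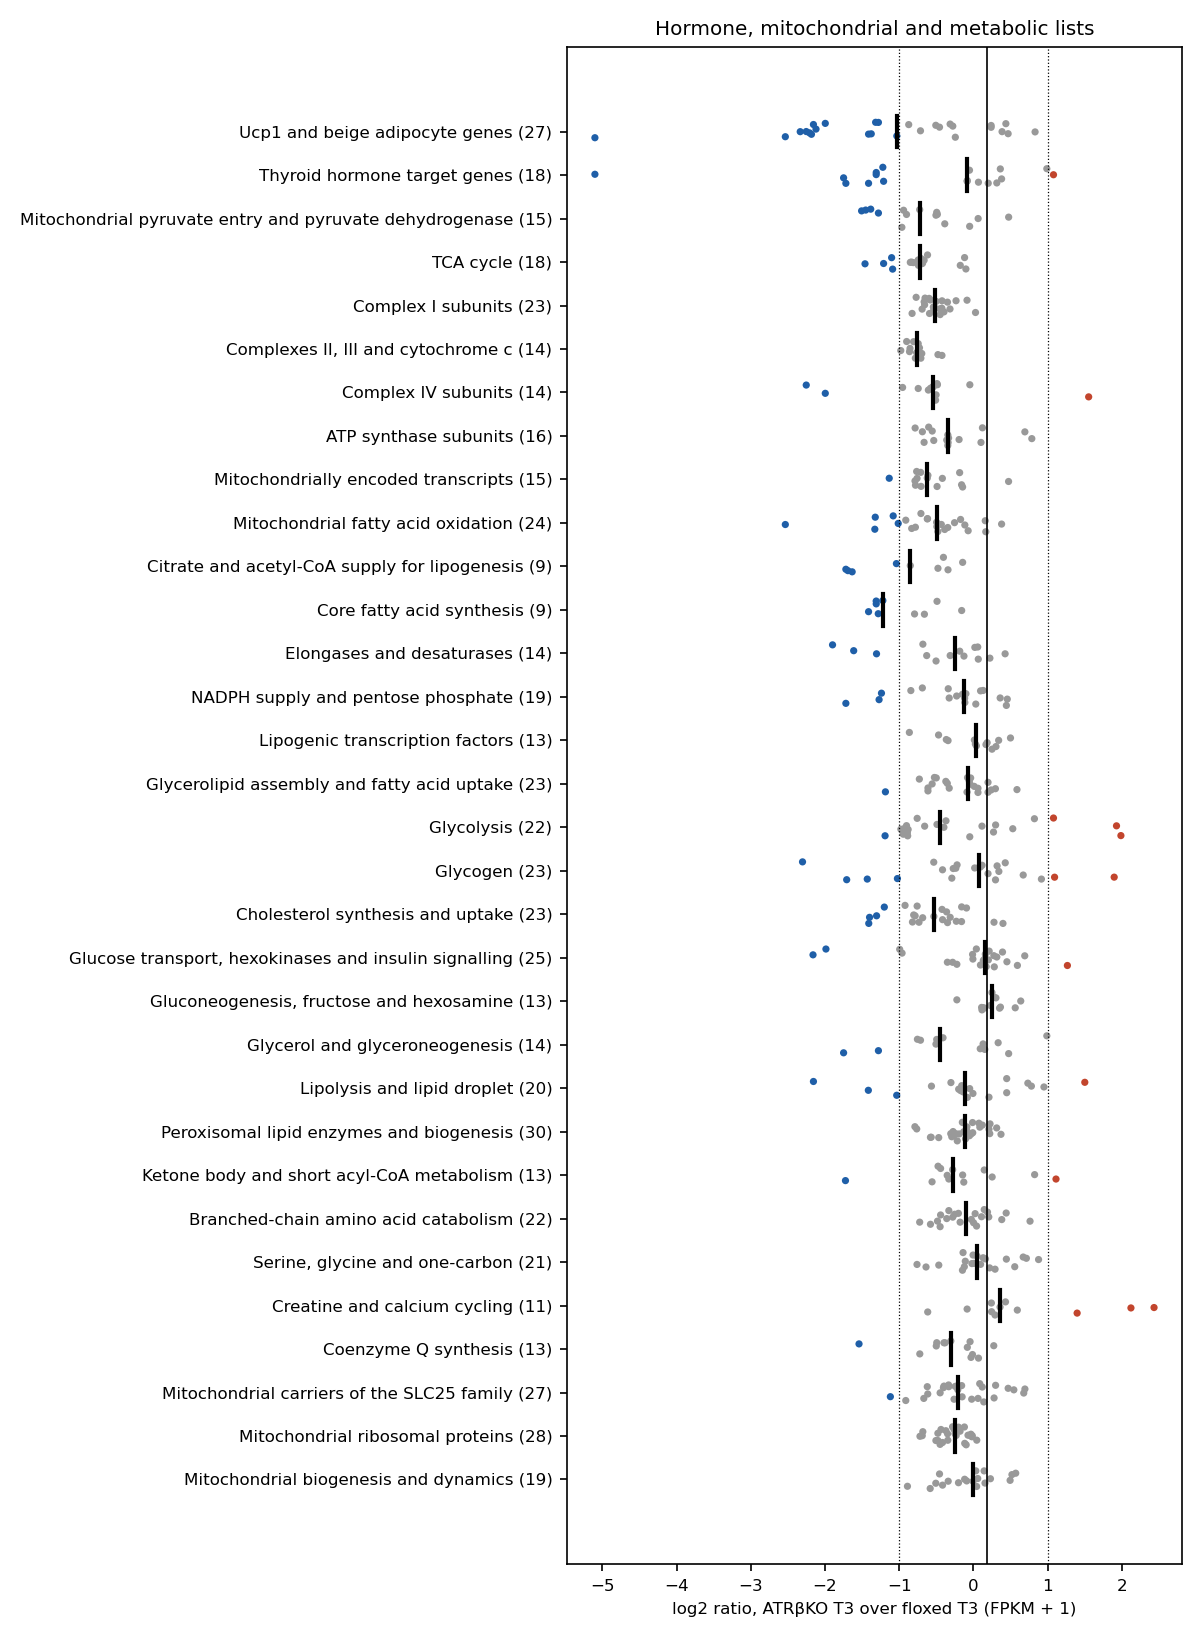
Each point is 1 gene at its log2 ratio of the library labelled ATRβKO (T3) over floxed T3, in 32 lists with the number of measured genes in brackets; blue points are lower and red points higher by the 2-fold rule (dotted lines), black bars are list medians and the solid line is the median of all genes, 0.18. The medians run from -1.22 for core fatty acid synthesis to 0.36 for creatine and calcium cycling. The bars of that list and of gluconeogenesis, fructose and hexosamine (0.25) lie right of the solid line, and the others lie left of it.

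Adipocyte genes outside metabolism of fuel went both ways. Of 20 adipocyte markers 19 reached 1 FPKM, 3 were higher and none lower. Their median was 0.19, close to that of all genes, and it turned below 0 after rescaling by trimmed means. Fabp4 and Plin1, general markers of fat cells, stood at 10682, 11288 and 10033 FPKM and at 557, 577 and 635 FPKM. Fabp4 and Plin1 were near equal in both T3 libraries, and other markers of the list were not. Cidec stood at 1059, 616 and 978 FPKM and Cfd at 8279, 4783 and 11233 FPKM, with log2 ratios of 0.78 and 0.79. Of the 19 measured markers 11 had a ratio above 0 and 8 below it. Adipoq, which encodes adiponectin, stood at 1482, 781 and 1498 FPKM, a log2 ratio of 0.92, and Lep, which encodes leptin, at 206, 140 and 232 FPKM. Car3, a carbonic anhydrase abundant in fat, was higher at 6395, 2791 and 7257 FPKM and had the largest gain in FPKM of any gene that the naming rule allowed. Slc7a10, an amino acid transporter of white adipocytes, was higher at 75.8, 26.2 and 90.4 FPKM. Angptl8, an insulin-responsive inhibitor of lipoprotein lipase, was lower at 15.9, 62.5 and 11.4 FPKM.

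Imprinted genes, expressed from 1 parental allele and many of them tied to growth, included 5 higher genes and no lower one among 18 measured, with a median of 0.47. Nnat, neuronatin, a membrane protein also made in fat, stood at 517, 98.1 and 829 FPKM, and with a log2 ratio of 2.39 it was among the largest ratios of non-muscle genes. Meg3, a long noncoding RNA, stood at 49.6, 18.1 and 40.0 FPKM, and H19, another, at 9.50, 2.98 and 15.0 FPKM. Peg3 and Mirg were the others. Several imprinted transcripts are also made in muscle, whose list was higher in the same library. None of the 18 measured genes is in the muscle list. The part of muscle in these ratios was not tested.

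Genes of fibroblasts and of the matrix were mostly above the median of all genes. Of 24 fibroblast and progenitor markers, 5 were higher and none lower, with a median of 0.71. Dpp4, a marker of early progenitors, stood at 26.2, 12.0 and 25.9 FPKM, and Clec3b, tetranectin, at 468, 196 and 325 FPKM. Pdgfra, the general marker of the lineage, stood at 25.5, 16.9 and 21.7 FPKM and did not reach 2-fold. Among 24 measured collagens, 5 were higher and none lower, with a median of 0.53. Col1a1 and Col1a2, the chains of fibrillar type I collagen, stood at 311, 111 and 167 FPKM and at 433, 169 and 258 FPKM. Col3a1, of type III, stood at 1031, 454 and 660 FPKM. For these fibrillar chains the library labelled ATRβKO (T3) was the highest of the 3 and floxed T3 the lowest. Basement membrane chains were nearer to equal, with Col4a1 at 223, 257 and 191 FPKM.

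Other matrix proteins had a median of 0.59, with 2 of 35 higher: Fn1, fibronectin, at 225, 101 and 162 FPKM, and the proteoglycan Podn. The share higher over all genes compared was 4.04%, so 2 of 35 says little about the list. Of 35 measured proteases, inhibitors and crosslinkers 5 were higher and none lower. Ctsk, the collagen-cleaving cathepsin K, stood at 71.2, 25.7 and 50.8 FPKM, and the gelatinase Mmp2 at 132, 63.2 and 115 FPKM. Among 31 measured growth factors and hormones of fat, 5 were higher and none lower, with a median of 0.52. Sfrp2 and Sfrp4, secreted proteins that bind Wnt ligands, stood at 40.0, 11.2 and 33.0 FPKM and at 33.2, 11.7 and 21.3 FPKM. Bmp4, a ligand of the bone morphogenetic protein family, stood at 6.96, 2.17 and 5.39 FPKM.

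Lists of macrophages and lymphocytes had medians above that of all genes, with few genes past 2-fold. Of 33 macrophage markers, 30 were above that median and 4 were higher: Trem2, Gpnmb, Folr2 and Clec10a. Trem2, a lipid-sensing receptor of macrophages, stood at 29.7, 9.19 and 20.5 FPKM, and Folr2, a folate receptor of resident macrophages, at 182, 77.7 and 121 FPKM. Adgre1, which encodes F4/80, stood at 36.0, 20.5 and 23.3 FPKM and did not reach 2-fold. Markers of T and NK cells included 2 higher genes of 27 measured, Lck and Cd3d, beside 4.04% higher over all genes. Their median was 0.62. Cd3e, of the T cell receptor complex, stood at 18.2, 10.5 and 24.7 FPKM. None of the 23 B and plasma cell markers passed 2-fold, with a median of 0.49, nor did any of 15 MHC class II genes, with a median of 0.39. Neutrophil and mast cell markers had a median of 0.11, below that of all genes, and it turned below 0 under rescaling by the median or by trimmed means. Of 16 measured, 3 mast cell proteases were higher, with Mcpt4 at 39.0, 14.8 and 34.6 FPKM, and the neutrophil gene Ltf, lactoferrin, was lower at 1.19, 4.52 and 4.18 FPKM.

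Complement genes stood together, since all 19 measured had a ratio above 0 and 18 lay above the median of all genes. Of these 5 were higher, C2, C7, C5ar1, C6 and C4b, and the list median was 0.81. C4b, a component of the classical pathway, stood at 481, 235 and 499 FPKM, and Cfd, the adipocyte product adipsin, at 8279, 4783 and 11233 FPKM. Chemokines and their receptors had no common direction past 2-fold, with 1 higher and 2 lower of 38 measured, beside 4.04% and 2.01% over all genes. Their median was 0.36, with 30 ratios above 0 and 25 above the median of all genes. Ccl8, a monocyte attractant, was higher at 366, 101 and 179 FPKM. Cxcl9 and Ccl17 were lower, with Cxcl9, which is induced by interferon-γ, at 17.4, 37.6 and 17.4 FPKM. Ccl17 was near the floor at 0.23, 2.54 and 1.68 FPKM. Interferon-induced genes had 2 higher and 1 lower of 35, beside 4.04% higher and 2.01% lower over all genes. Their median was 0.19 and turned below 0 after rescaling by trimmed means. Iigp1, a guanosine triphosphatase induced by interferon-γ, was lower at 31.3, 98.7 and 23.3 FPKM, and Ifi27l2a was higher at 2918, 1052 and 3703 FPKM.

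Endothelial genes had a median of -0.07, below that of all genes, and mural cell genes 0.21, with none of 22 and none of 15 past 2-fold. Endothelial ratios ran from -0.72 for Cdh5, VE-cadherin, at 55.6, 92.4 and 58.5 FPKM, to 0.65 for Lyve1, a lymphatic marker that macrophages share, at 55.2, 34.9 and 39.8 FPKM. Schwann cell genes had a median of 0.45. Only 3 of 20 epithelial and 3 of 10 mesothelial markers reached 1 FPKM. The keratin gene Krt14 stood at 0.49 FPKM in the library labelled ATRβKO (T3) and was listed at 0 in the others, and Upk3b of mesothelium was listed at 0 in both T3 libraries. Cytosolic ribosomal protein genes, which every cell uses, had a median of 0.37 over 33 genes, and Rpl3, at 463, 226 and 363 FPKM, was the only one past 2-fold. Markers of red blood cells had a median of 0.20.

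**Figure D5:**
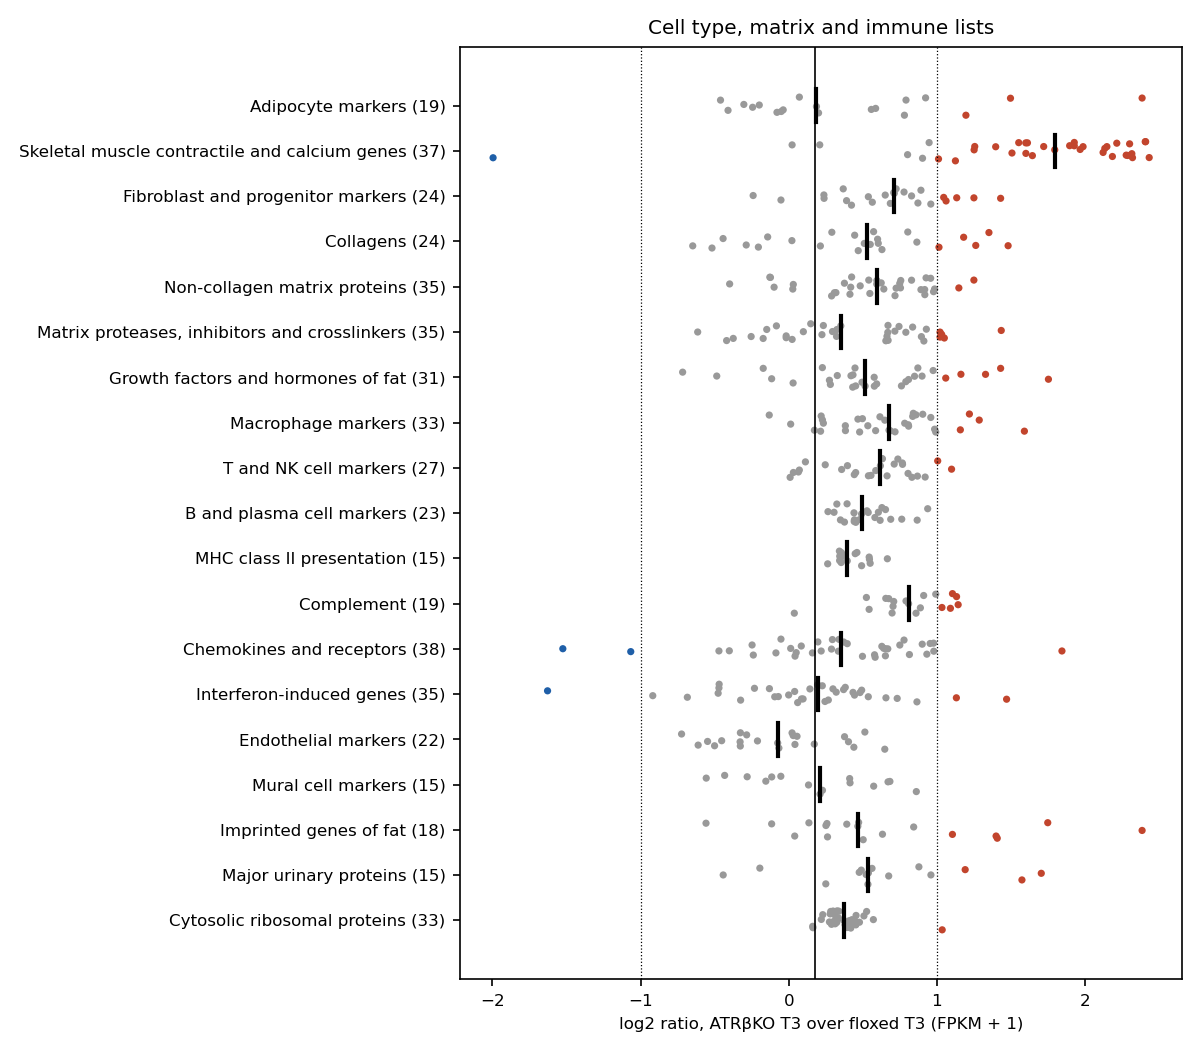
Points, bars and lines are as in the plot of metabolic lists, here for 19 lists of cell types, matrix, immune and other genes, with the number of measured genes in brackets. The muscle list has the largest median, 1.80, complement follows at 0.81, and endothelial genes have the smallest, -0.07.

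Major urinary proteins, carriers of pheromones made mostly in liver, were abundant in all 3 libraries. Mup18 stood at 11579, 8327 and 3170 FPKM, and Mup22 at 5098, 3453 and 1416 FPKM. Vehicle was lowest for both. Of 15 measured 3 were higher, with Mup2 at 33.7, 9.64 and 3.78 FPKM. These genes are near-identical copies, so their single values are uncertain. Serpina3k, a serine protease inhibitor of a cluster of close copies, had the largest log2 ratio under the naming rule, 3.59, with 26.0, 1.24 and 1.72 FPKM. Its relative Serpina3n stood at 340, 168 and 222 FPKM and just passed 2-fold. Eno1b, a copy of the enolase gene Eno1 that can share its reads, had the smallest ratio, with 0.59, 465 and 135 FPKM, while Eno1 itself stood at 437, 576 and 279 FPKM. Among other large ratios, Slco1a6, an organic anion transporter, stood at 35.0, 6.23 and 29.7 FPKM, and Rprml at 8.81, 1.32 and 3.10 FPKM. Among other small ones, Dnah7a, an axonemal dynein heavy chain, stood at 3.85, 43.2 and 31.7 FPKM, and Kng2, a kininogen, at 1.08, 11.5 and 1.63 FPKM. Snhg9, a noncoding host gene of a small nucleolar RNA, was at 9.37 FPKM in floxed T3 and listed at 0 in the other 2 libraries.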

How the data were processed

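RNA sequencing libraries of iWAT (Illumina TruSeq, paired reads on a NovaSeq instrument, per the labels' protocols) were compared as 1 pooled library per group. HISAT2, StringTie and the build GRCm39 are named in the submitters' processing notes, without settings. The unit of the deposited table was read as FPKM, computed by the authors. This is an inference, since no header names a unit: the values have decimals and add up to 748645, 787969 and 752569 for the library labelled ATRβKO (T3), floxed T3 and vehicle. Strand handling is not given in the sources used here, so overlapping genes and near-identical copies can share reads. No counts were used. Steps between the low values of genes with a single exon gave a rough depth, at which 1 FPKM on 1 kb stands for 14.4, 14.4 and 13.9 fragments, so counting error is large near 1 FPKM. The high-fat diet table is not used here.

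Log2 ratios used a pseudocount of 1 FPKM and a floor of 1 FPKM in the higher library, with a 2-fold size rule and no test, in Python 3.11.15 with numpy 2.4.6, pandas 2.3.3 and matplotlib 3.10.9. The steps were tested on simulated data. Gene lists (66, with 1370 genes, of which 1235 reached 1 FPKM, 90 were higher and 68 lower) and members were chosen with earlier results of these data known. Genes were named by rule: Thrb and Thra, the 20 largest and 20 smallest ratios at 5 FPKM or more, the 10 largest gains and 10 largest losses in FPKM (predicted, clone-named and Rik genes, receptor segments, small RNAs, ribosomal protein genes and pseudogenes left out), and up to 6 genes of each list with the largest ratios. Other genes in the text were picked after their values were seen, for their role in a pathway or as markers. Alternatives were pseudocounts of 0.1 and 5 FPKM, a floor of 5 FPKM or none, size rules of 1.5-fold and 4-fold, and rescaling by the median ratio, by trimmed means of M values or without the 50 most abundant genes. Some genes are not reported here.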

Additional observations from a re-analysis of the deposited data

How the results depend on the processing

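The number of genes higher in the library labelled ATRβKO (T3) was 606, and 1093 with a pseudocount of 0.1 FPKM, 192 with 5 FPKM, 355 with a floor of 5 FPKM, 400 after rescaling to a median ratio of 0, 2008 at 1.5-fold and 94 at 4-fold. The number lower was 302, and 474, 116, 167, 444, 758 and 54 under the same alternatives in that order. Rescaling by trimmed means gave 408 higher and 421 lower, and rescaling without the 50 most abundant genes gave 461 and 375, so the excess of higher genes depends on scaling. Removing the floor could not move either count, since with 1 FPKM added a 2-fold ratio needs 1 FPKM or more in the higher library. The cause was not tested beyond what each setting's own construction gives. Of 66 list medians 15 changed sign under at least 1 alternative, 14 of them under trimmed means. Of 394 named genes 154 passed 2-fold, 49 of these left it under at least 1 alternative, most often with a pseudocount of 5 FPKM (39), and none reversed. No paired analysis was possible because each group is 1 library. Leaving out a replicate could not be done for the same reason. Depth limits genes near 1 FPKM, and in the range from 1 to 5 FPKM 5.76% were called higher and 3.10% lower. These shares were 3.30% and 1.18% from 5 to 20 FPKM. From 100 to 500 FPKM they were 5.43% and 3.71%, so calls were not more frequent only at low levels.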

Other observations

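Other metabolic and regulatory lists held few genes past 2-fold. Acsm3, a medium-chain acyl-CoA synthetase, was lower at 14.1, 49.0 and 16.9 FPKM (the library labelled ATRβKO (T3), floxed T3 and vehicle), and Bdh1, which handles ketone bodies, was higher at 2.74, 0.73 and 3.63 FPKM. None of 30 peroxisomal, 22 branched-chain amino acid or 21 serine and one-carbon genes passed 2-fold. Slc25a35 was the only lower one of 27 measured mitochondrial carriers of the SLC25 family, at 26.9, 59.7 and 31.6 FPKM. Creatine and calcium cycling held 3 higher genes, Atp2a1, Ckmt2 and Ryr1, all of which are also in the muscle list, and with these left out none of 8 was past 2-fold. Stress response lists held few genes past 2-fold. Srxn1 and Gclm, which defend against oxidants, were lower, with Srxn1 at 12.9, 33.2 and 13.5 FPKM, and Hspa1a, a heat shock protein, was higher. Heat shock and oxidative stress genes had a median of -0.13. Genes of the unfolded protein and integrated stress response had a median of 0.37, and 20 of 26 lay above 0.18, the median of all genes. Ddit4, a stress-induced inhibitor of growth signalling, was higher at 76.3, 30.3 and 40.2 FPKM, and Atf5, a factor of the mitochondrial stress response, was lower at 60.9, 123 and 56.4 FPKM. The clock had 1 lower gene of 19, Bhlhe40, at 16.5, 39.5 and 33.8 FPKM, beside 2.01% lower over all genes. No clock gene was called higher, and Hlf and Per1 lay just under the line with log2 ratios of 0.95 and 0.91. Of the 19 ratios 11 were above 0 and 8 below it. The clock median was 0.11 and turned below 0 under rescaling by the median or by trimmed means. None of 24 proliferation genes or 21 measured immediate early genes passed 2-fold. Their medians were 0.08 and 0.38, and 15 of the 21 immediate early genes lay above the median of all genes.

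The library labelled ATRβKO (T3) stood at least 2-fold from both floxed libraries, on the same side, in 17 genes. They are among the 9779 genes at 5 FPKM or more that the naming rule allowed. Against floxed T3 alone, 225 of those 9779 were higher and 112 lower. Lower than both were Eno1b, Ucp1, Dnah7a, Cpt1b and Cidea. The 12 higher than both included Hsd11b1, which makes active glucocorticoid in fat, at 273, 131 and 133 FPKM, the chemokine Ccl8, and Zfp949, a zinc finger gene, at 15.1, 4.19 and 4.76 FPKM. Tmem160 stood at 34.2, 13.8 and 13.8 FPKM, and Polr2m at 132, 64.4 and 58.7 FPKM. Mb, of the muscle list, was also among the 12. In some of the 17, Ucp1, Cpt1b, Eno1b and Mup2 among them, the floxed libraries also differed by over 2-fold from each other, and a single library of each group gives no spread to set this against.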
